A study of Homo sapiens with 20 samples.

Results

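The MYC, MAX and MXD network is a group of transcription factors that pair through a shared basic helix-loop-helix leucine zipper domain. Its rows were taken by gene symbol: MYC, MYCN, MYCL, MAX, MXD1, MXD3, MXD4, MXI1, MNT and MLX, 10 of 45372 symbols in each of the deposited tables, and all 10 were found. Gene expression was measured by stranded mRNA sequencing of HEK293T, a human embryonic kidney line carrying the SV40 large T antigen, after treatment with small interfering RNAs (siRNAs). The question was how transcripts respond when HUWE1, which encodes a HECT-domain ubiquitin ligase, is knocked down. There were 20 libraries in 5 groups of 4 biological replicates: HUWE1 siRNA and non-targeting (NT) siRNA libraries whose labels carry no set number, called set 1, and HUWE1 siRNA libraries of set 2 and of set 3 with NT libraries that both sets share. All groups were HEK293T, so no other cell line or genotype enters, and the sources used here give neither the siRNA sequences nor what separates the sets. Set 1 is in the first table and sets 2 and 3 are in the second. The values are TPM, transcript abundances scaled for transcript length and library total.

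MAX is the shared partner of the network. MYC, MYCN and MYCL bind DNA as dimers with MAX and mostly activate genes that drive growth, at a short sequence called the E-box. MXD1, MXD3, MXD4, MXI1 and MNT also dimerise with MAX, bring in SIN3 and histone deacetylase corepressors, and counter MYC at the same sites. MLX is a second shared partner, for the glucose-responsive factors MondoA and ChREBP and for MXD1, MXD4 and MNT. The HUWE1 ligase has been reported to attach ubiquitin to the MYC and MYCN proteins, whose amounts were not measured here.

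The targeted transcript was reduced in each set. HUWE1 stood at 85.0 ± 1.72 TPM in HUWE1 siRNA libraries of set 1, against 157 ± 3.57 TPM in their NT libraries (SD, n = 4 each), or 54.1% of the NT level. It kept 57.9% of the NT level in set 2 and 51.9% in set 3. Of 6 markers fixed for HEK293T, PAX2 was lowest, at 1.67 to 4.37 TPM, and the others, NEFM, NEFL, KRT8, KRT18 and VIM, had 38.1 TPM or more in every library. Of 8 markers of T cells, liver, endothelium, fibroblasts and muscle, COL1A1 reached 5.60 to 11.4 TPM and the other 7 stayed under 2 TPM. Sequencing depth is unknown because TPM keeps none, so no counting error is given. RNA is from whole cultures, so fewer cells expressing a gene and less RNA per cell cannot be told apart.

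The promoters of MXD4, MNT and MLX hold the canonical E-box CACGTG, which reads the same on both strands. They are shown with that of MXD1, the other repressor gene with a called change, which has no such match. The letters are the 250 bases before the annotated start, 5′ to 3′ on the gene's strand, from RefSeq on GRCh38.p14, and capitals mark the E-box.
MXD4: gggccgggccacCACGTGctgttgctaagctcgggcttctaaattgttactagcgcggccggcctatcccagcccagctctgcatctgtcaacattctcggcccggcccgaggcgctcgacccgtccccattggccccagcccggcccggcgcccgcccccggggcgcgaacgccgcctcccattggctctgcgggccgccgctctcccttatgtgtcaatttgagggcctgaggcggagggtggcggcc
MNT: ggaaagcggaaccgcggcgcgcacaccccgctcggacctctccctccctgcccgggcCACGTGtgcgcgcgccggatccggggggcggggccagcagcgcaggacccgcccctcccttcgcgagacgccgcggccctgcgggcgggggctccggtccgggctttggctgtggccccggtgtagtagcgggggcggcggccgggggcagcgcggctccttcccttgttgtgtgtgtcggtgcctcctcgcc
MLX: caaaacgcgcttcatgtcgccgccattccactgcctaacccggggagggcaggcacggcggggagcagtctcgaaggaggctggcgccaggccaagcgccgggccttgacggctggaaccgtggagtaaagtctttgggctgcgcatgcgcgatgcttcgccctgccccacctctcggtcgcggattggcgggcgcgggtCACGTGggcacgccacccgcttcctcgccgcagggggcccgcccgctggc
MXD1: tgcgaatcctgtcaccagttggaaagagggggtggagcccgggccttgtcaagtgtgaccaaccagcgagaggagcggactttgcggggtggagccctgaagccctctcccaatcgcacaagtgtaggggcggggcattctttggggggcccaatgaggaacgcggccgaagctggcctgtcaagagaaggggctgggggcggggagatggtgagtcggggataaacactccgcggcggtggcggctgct
They lie at chr4:2262110-2262359 (minus strand) for MXD4, chr17:2401061-2401310 (minus strand) for MNT, chr17:42566850-42567099 (plus strand) for MLX and chr2:69914859-69915108 (plus strand) for MXD1. The E-box began 238 bases before the start of MXD4, 193 before that of MNT and 50 before that of MLX. These starts are those of RefSeq, and the gene spans given with the results are those of GENCODE 29. For MXD4, MNT, MLX and MXD1 alike the GENCODE spans begin further upstream, at 2262294, 2401118, 42567068 and 69897688. Part of the bases shown for MXD4, MNT and MLX, and all of those for MXD1, thus lie inside these spans. The E-box distances hold for the RefSeq starts only. In all, 9 of the 10 genes, all but MYC, had 12 promoters in that table, and 3 of these 12 held CACGTG, against 6.34% of all 35116 promoters searched over the same 250 bases. The variant CACGCG, searched on both strands, was in 0 of the 12 and in 9.72% of all promoters. A match is a description of the letters and not a measured binding site.

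Between groups, limma tested all 10 genes in both tables on log2(TPM + 1), with Benjamini-Hochberg adjustment over 16057 genes in the first table and 15860 in the second, and a gene was called at an adjusted p under 0.05. In set 1, 4 of the 10 genes were called, 2 higher (MXD1 and MXD4) and 2 lower (MYC and MNT). Of all genes tested in set 1, 30.3% were called, 12.3% higher and 17.9% lower, so the share of network genes called was near the background. Scaling moved that split: 40.8% of the calls in set 1 were higher as fitted, 49.0% after scaling by medians of ratios and 50.8% after quantile normalization, and in set 3 the share was 64.2% as fitted, 48.2% and 52.4% under these scalings and 44.4% without mitochondrially encoded genes. In set 2, limma called 0 of the 10, where 0.0126% of all genes were called, and 0 of the 10 had an unadjusted p under 0.05, where 8.83% of all genes had one. In set 3, MXD1 and MXD4 were again called higher, against 7.45% of all genes called higher, and 0 of the 10 were called lower, against 4.15% of all genes. Without NT libraries 1 and 4, a choice made after seeing the data, the counts for set 3 were again 2 higher and 0 lower. That fit called 20.6% of all genes in either direction, against 11.6% in the main fit. An unadjusted p under 0.05 in set 3 was held by 3 of the 10 (MXD1, MXD4 and, with a negative change, MLX) and by 34.5% of all genes. The libraries of both groups did not overlap for the 4 called genes of set 1, where 13.3% of all genes lay wholly higher and 18.4% wholly lower. The same held for 0 of the 10 in set 2 (1.99% and 1.71% of all genes), and in set 3 for MXD1 and MXD4 above NT (11.2% of all genes) and MXI1 below it (6.03%). Between sets 3 and 2, MXD4 alone of the 10 lay wholly higher and 0 wholly lower, beside 8.13% and 5.05% of all genes. Sets 2 and 3 share their NT libraries, so they are not independent of each other. The 4 libraries of a group are labelled biological replicates, and the sources used here do not say whether they came from separate cultures, so the p-values measure the spread between them.

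**Figure D1:**
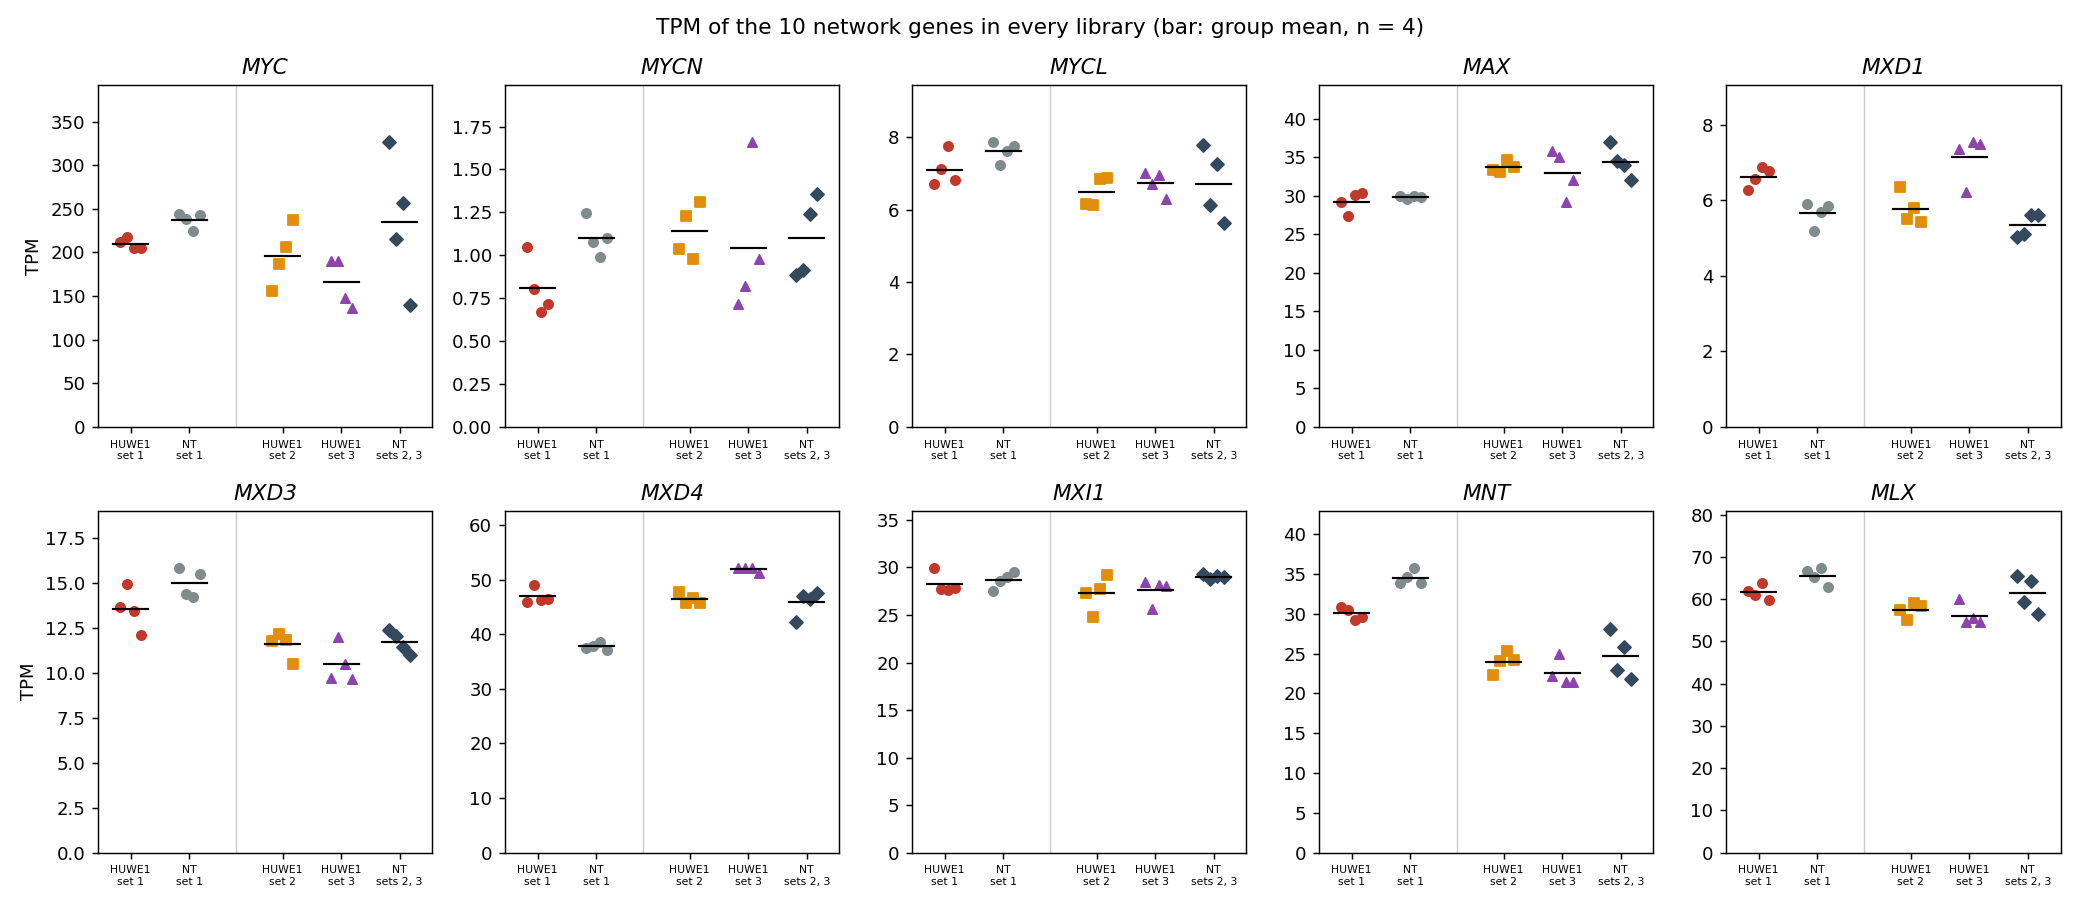
TPM of the 10 network genes (vertical axis, from 0) in each of 20 libraries, by group, with the first table left of the grey line and the second right of it; points are libraries and bars are group means of 4. MXD4 and MNT are separated between HUWE1 siRNA and NT in set 1, and MYC in the NT libraries of sets 2 and 3 runs between 139.8 and 327 TPM.

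MYC (GRCh38, chromosome 8, 127735434 to 127741434, plus strand), the founding activator, was the most abundant network transcript in every library. In set 1 it measured 212, 218, 205 and 205 TPM in HUWE1 siRNA libraries, against 244, 238, 225 and 243 TPM in NT libraries. All 4 HUWE1 siRNA libraries lay below all 4 NT libraries. The log2 fold change was -0.18 ± 0.032 (SE, limma adjusted p = 0.00292), a mean 11.5% below the NT level, which places MYC at percentile 15.6 of all fold changes in that set. MYC stayed called without any single library of set 1, with adjusted p between 0.00188 and 0.0115.

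In the second table MYC spread far more. It measured 156, 187, 207 and 237 TPM in HUWE1 siRNA libraries of set 2 and 190.0, 191, 147 and 136 TPM in those of set 3, against 327, 215, 256 and 139.8 TPM in the shared NT libraries. NT library 1 was the highest of the 12 and NT library 4 was below all but 1, a HUWE1 siRNA library of set 3, so both sets overlapped the NT range. The log2 fold change was -0.21 ± 0.22 in set 2 and -0.45 ± 0.22 in set 3 (SE, limma adjusted p = 0.744 and 0.166), with 95% intervals of -0.68 to 0.27 and -0.92 to 0.029. These estimates moved with single libraries. The set 2 value was -0.10 without HUWE1 siRNA library 1 of set 2 and -0.14 without NT library 3. Without NT library 1 the change was -0.026 in set 2 and -0.27 in set 3. Without NT library 4 it was -0.43 in set 2 and -0.67 in set 3, and limma then called MYC lower in set 3 (adjusted p = 0.0109), in a fit that called 37.2% of all genes. Without NT libraries 1 and 4, a choice made after seeing the data, it was -0.27 in set 2 and -0.51 in set 3 (limma adjusted p = 0.5 and 0.0515). Within the NT group of 4, the coefficient of variation of MYC was 33.3%, against 3.66% in the NT libraries of set 1.

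Other quantities moved with these NT libraries. Histone transcripts summed to 458 TPM in NT library 1 and to 183 TPM in NT library 4, and mitochondrially encoded transcripts took 18.3% and 16.6% of TPM there. The part of either in the MYC values was not tested. Across the 4 NT libraries of the second table, MYCL, MNT and MLX followed the same order as MYC, highest in library 1, then 3, 2 and 4. That order held for 24.7% of the 15860 genes tested. MXD4 had exactly the reverse order, as did 15.1% of genes. NT library 1 over NT library 4 gave a TPM ratio of 2.34 for MYC, at percentile 97.9 of all genes tested, and of 1.38 for MYCL, 1.29 for MNT and 0.889 for MXD4, with a median of 1.04 over all genes.

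The genes whose profile over the 20 libraries lay closest to that of MYC were CDK9, FEN1, MAD2L1BP, FRAT2 and MAP3K4. Likeness was the root mean square difference of log2(TPM + 1) after subtracting the NT mean of each table, over the 2189 genes whose mean log2 fold change was at least 0.5 times that of MYC (-0.28). It was 0.0359 for CDK9, the kinase of the transcription elongation factor P-TEFb, and 0.0647 for FEN1, a DNA replication nuclease. CDK9 measured 99.7, 60.8, 73.4 and 40.6 TPM in NT libraries 1 to 4 of the second table, in the same order as MYC. Set 1 gave CDK9 a log2 fold change of -0.17, set 2 one of -0.21 and set 3 one of -0.46, beside -0.18, -0.21 and -0.45 for MYC. CDK9 was picked for its likeness to MYC over these same libraries. The shared order and the near fold changes therefore follow from the choice and are no separate result. Limma called CDK9 lower in set 1 and did not call it in sets 2 and 3.

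The other activators were scarce. MYCN (chromosome 2, 15940564 to 15947007, plus strand), best known from the developing nervous system and neuroblastoma, had 1.05, 0.803, 0.667 and 0.716 TPM in HUWE1 siRNA libraries of set 1, against 1.25, 1.08, 0.988 and 1.10 TPM in NT libraries. The groups overlapped by 1 HUWE1 siRNA library, and limma did not call the difference (log2 fold change -0.22 ± 0.097 SE, adjusted p = 0.112), though it did without a variance trend (0.0435). MYCN overlaps MYCNOS on the opposite strand. MYCN reached 1 TPM in 4 of 8 libraries of the first table, 3 of them NT, and in 6 of 12 of the second, so it sits at the edge of the filter. There it averaged 1.14 ± 0.158 TPM in HUWE1 siRNA set 2, 1.04 ± 0.425 in set 3 and 1.10 ± 0.236 in NT libraries (SD, n = 4 each). The sign of its change in set 2 was not stable, at 0.031 as fitted and -0.0043 with quantile normalization.

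MYCL (chromosome 1, 39895426 to 39902256, minus strand), the family member first found in lung cancer, averaged 7.11 ± 0.475 TPM in HUWE1 siRNA libraries of set 1, against 7.62 ± 0.273 TPM in NT libraries (SD, n = 4 each). The second table gave 6.50 ± 0.417 TPM in HUWE1 siRNA set 2, 6.75 ± 0.323 in set 3 and 6.70 ± 0.991 in NT libraries. The limma adjusted p was 0.222, 0.903 and 0.903 in sets 1, 2 and 3, and the change in set 3 was 0.016 as fitted and -0.012 without mitochondrially encoded genes. MYC made up 94.5% to 97.4% of the summed TPM of the 3 activators in every library.

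The shared partners showed no called change. MAX (chromosome 14, 65006174 to 65102695, minus strand) measured 29.2, 27.3, 30.1 and 30.4 TPM in HUWE1 siRNA libraries of set 1, within or around the 29.6 to 30.0 TPM of their NT libraries. Set 1 gave a log2 fold change of -0.028 ± 0.036 (SE, limma adjusted p = 0.588), set 2 one of -0.028 ± 0.063 (0.882) and set 3 one of -0.06 ± 0.063 (0.506). The 95% interval in set 1 ran between -0.11 and 0.051, so a fall of the size of that of MYC lies outside it. Over the 12 libraries of sets 2 and 3, MAX lay between 29.2 and 37.0 TPM. MAX overlaps FNTB and CHURC1-FNTB on the opposite strand, and the sources used here do not say whether the authors counted by strand.

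MLX (chromosome 17, 42567068 to 42573239, plus strand) had a negative fold change in every set and was called in none. It measured 61.9, 61.1, 63.7 and 59.9 TPM in HUWE1 siRNA libraries of set 1, against 66.7, 65.2, 67.4 and 62.8 TPM in NT libraries, with 1 NT value inside the HUWE1 siRNA range. Set 1 gave a log2 fold change of -0.087 ± 0.03 (SE, limma adjusted p = 0.0547), while sets 2 and 3 gave -0.091 ± 0.052 (0.607) and -0.13 ± 0.052 (0.113). The set 1 value passed the threshold with the filter at a mean of 5 TPM (adjusted p = 0.0473), without HUWE1 siRNA library 3 (0.0484) and without NT library 4 (0.0315). MLX lay at 55.1 to 59.0 TPM in set 2 and at 54.5 to 60.0 TPM in set 3, against 56.6 to 65.4 TPM in NT libraries. Set 3 passed the threshold without NT library 4 (0.023), in a fit that called 37.2% of all genes. MLX overlaps PSMC3IP on the opposite strand.

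The repressors moved in different directions in set 1. MXD4 (chromosome 4, 2247432 to 2262294, minus strand), an MXD protein linked to cells leaving the cycle, had 45.8, 49.1, 46.3 and 46.5 TPM in HUWE1 siRNA libraries of set 1, against 37.5, 37.9, 38.6 and 37.1 TPM in NT libraries. The groups were far apart, with the lowest HUWE1 siRNA library at 45.8 TPM and the highest NT library at 38.6 TPM. The log2 fold change of 0.31 ± 0.03 (SE, limma adjusted p = 1.44e-04), a mean 24.3% above the NT level, was the largest of the 10 in set 1 and stood at percentile 97.5 of all genes.

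In the second table MXD4 had 47.7, 45.7, 46.7 and 45.8 TPM in HUWE1 siRNA set 2 and 52.2, 52.2, 52.1 and 51.2 TPM in set 3, against 42.3, 47.0, 46.4 and 47.6 TPM in NT libraries. The set 3 libraries all lay above the NT libraries, while those of set 2 overlapped them. Limma called set 3 (log2 fold change 0.18 ± 0.041 SE, adjusted p = 0.0244) and not set 2 (0.021 ± 0.041, adjusted p = 0.859). The set 3 call was lost without HUWE1 siRNA library 1, 3 or 4 of set 3 or NT library 2 or 3 (adjusted p between 0.0519 and 0.0743), with only the 2 groups compared (0.065) and with the replicate number as a block (0.0547), at fold changes between 0.18 and 0.19. Set 3 exceeded set 2 in 4 of 4 libraries, by 0.16 ± 0.041 (95% interval 0.068 to 0.25). That difference did not pass the test over all genes (limma adjusted p = 0.11).

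MXD1 (chromosome 2, 69897688 to 69942945, plus strand), the original MAD protein induced as cells differentiate, rose in the same sets. It had 6.28, 6.55, 6.86 and 6.77 TPM in HUWE1 siRNA libraries of set 1, against 5.91, 5.17, 5.70 and 5.86 TPM in NT libraries, with no overlap. The log2 fold change was 0.19 ± 0.053 (SE, limma adjusted p = 0.0204), a mean 16.9% above NT. The call was lost without HUWE1 siRNA library 3 (0.18, adjusted p = 0.0591) or 4 (0.18, adjusted p = 0.0555). MXD1 overlaps SNRNP27 on the same strand in GENCODE 29, so the value depends on how reads were assigned.

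In set 3 MXD1 had 7.35, 6.22, 7.54 and 7.47 TPM, and in set 2 it had 6.35, 5.51, 5.79 and 5.42 TPM, against 5.03, 5.11, 5.60 and 5.60 TPM in NT libraries. Every set 3 library lay above every NT library, while 2 of 4 set 2 libraries did. The set 3 change of 0.36 ± 0.07 (SE, limma adjusted p = 0.0157), a mean 33.9% above NT, was the largest increase among the 10 genes in any set. It lost its call without HUWE1 siRNA library 3 (0.34, adjusted p = 0.0584) or 4 (0.34, adjusted p = 0.0579). Set 2 gave 0.095 ± 0.07 (adjusted p = 0.666). Set 3 minus set 2 was 0.27 ± 0.07, with a 95% interval of 0.11 to 0.42, and did not pass the threshold (limma adjusted p = 0.115). Between these sets limma called 0 of the 10 network genes, where 0.517% of all genes were called. An unadjusted p under 0.05 was held by 2 of the 10, MXD1 and MXD4, and by 15.8% of all genes.

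MNT (chromosome 17, 2384060 to 2401118, minus strand), the widely expressed repressor, fell in set 1, unlike MXD1 and MXD4. It had 30.8, 30.5, 29.3 and 29.6 TPM in HUWE1 siRNA libraries, against 33.9, 34.6, 35.8 and 33.9 TPM in NT libraries, with no overlap. The log2 fold change was -0.19 ± 0.031 (SE, limma adjusted p = 0.00147), a mean 13.0% below NT, and the call held without any single library of set 1. In sets 2 and 3, with their NT libraries, MNT averaged 24.0 ± 1.22 TPM in HUWE1 siRNA set 2, 22.5 ± 1.70 in set 3 and 24.7 ± 2.85 in NT libraries (SD, n = 4 each), and neither set was called (-0.036 and -0.12, limma adjusted p = 0.874 and 0.271).

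MXI1 (chromosome 10, 110207605 to 110287365, plus strand), also known as MXD2, was not called in set 1 (limma adjusted p = 0.758), at 28.3 ± 1.12 TPM in HUWE1 siRNA libraries and 28.6 ± 0.852 TPM in NT libraries (SD, n = 4 each). In set 3 it had 28.5, 25.7, 28.1 and 28.0 TPM and in set 2 27.3, 24.8, 27.7 and 29.2 TPM, against 29.3, 28.8, 29.0 and 29.0 TPM in NT libraries. All set 3 libraries lay below the NT libraries, as they did for 6.03% of all genes tested. The two-sided exact permutation p of set 3 was 0.0286, the smallest that 4 against 4 allows, while limma gave an adjusted p of 0.319 for a change of -0.073 ± 0.051 (SE). MXD3 (chromosome 5, 177301461 to 177312757, minus strand), the MXD member present in proliferating cells, had negative changes of -0.14 ± 0.061 in set 1 and -0.15 ± 0.071 in set 3 (SE; limma adjusted p = 0.109 and 0.153), and -0.013 ± 0.071 in set 2 (adjusted p = 0.954). It measured 12.1 to 15.0 TPM in HUWE1 siRNA libraries of set 1, against 14.2 to 15.9 TPM in NT libraries. In the other sets it averaged 11.6 ± 0.735 TPM in set 2 and 10.5 ± 1.11 TPM in set 3, against 11.7 ± 0.621 TPM in NT libraries (SD, n = 4 each), with overlap in both. MXD3 overlaps RAB24 on its own strand and PRELID1 on the other. In set 1 it passed the threshold without HUWE1 siRNA library 2 (-0.19, adjusted p = 0.0401).

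**Figure D2:**
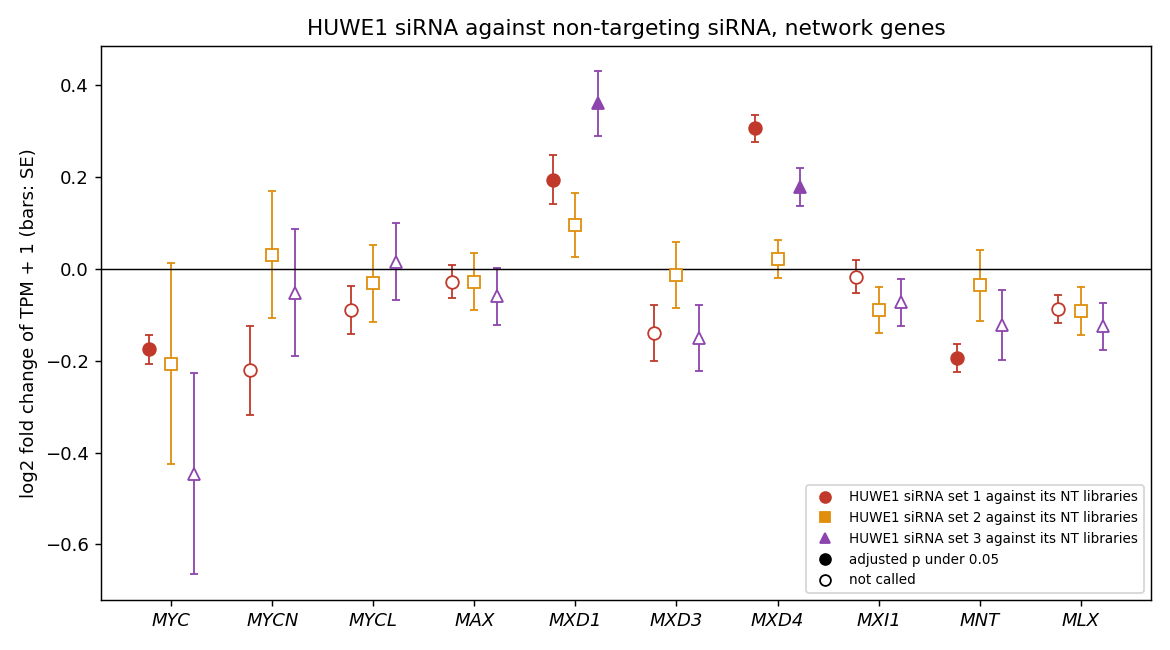
Log2 fold change of TPM + 1 (vertical axis) of each network gene (horizontal axis) in HUWE1 siRNA libraries against NT libraries, by set; bars are SE from limma and filled symbols have an adjusted p under 0.05. MXD1 and MXD4 are filled above 0 in sets 1 and 3, MYC and MNT are filled below 0 in set 1, and the MYC bars of sets 2 and 3 (SE 0.22) are the widest.

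By level per length, the order in HUWE1 siRNA libraries of set 1 ran MYC, MLX, MXD4, MNT, MAX, MXI1, MXD3, MYCL, MXD1 and MYCN by mean TPM. MNT (29.3 to 30.8 TPM), MAX (27.3 to 30.4 TPM) and MXI1 (27.6 to 30.0 TPM) overlapped there and are not ordered beyond their spread, nor are MYCL (6.72 to 7.77 TPM) and MXD1 (6.28 to 6.86 TPM). In NT libraries of set 1 the order of the means was the same, with MNT at 33.9 to 35.8 TPM clear of MAX. In the second table the means of MAX and MXI1 both lay above that of MNT in each group. MXD1 averaged more TPM than MYCL in HUWE1 siRNA set 3 (7.14 ± 0.624 against 6.75 ± 0.323; SD, n = 4), with overlapping values, and less than MYCL in the other groups.

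Summed over genes, the activators had 213 to 225 TPM in HUWE1 siRNA libraries of set 1, against 233 to 253 TPM in NT libraries. The 5 repressors summed to 123 to 129 TPM in HUWE1 siRNA libraries and to 121 to 123 TPM in NT libraries, with the rise of MXD4 and the fall of MNT set against each other. The ratio of the sums was 1.74 ± 0.00829 in HUWE1 siRNA libraries and 2.02 ± 0.0904 in NT libraries of set 1 (SD, n = 4 each), with no overlap. In the second table the ratio was 1.41 to 2.13 in set 2 and 1.22 to 1.65 in set 3, against 1.28 to 2.86 in NT libraries. These ranges overlapped, and the 4 NT values alone spread over more than the 2 HUWE1 siRNA groups together. The repressor sum varied little there, at 112 to 117 TPM in set 2 and 118 to 121 TPM in set 3, against 115 to 118 TPM in NT libraries. These sums and ratios describe the chosen genes and were not tested.

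**Figure D3:**
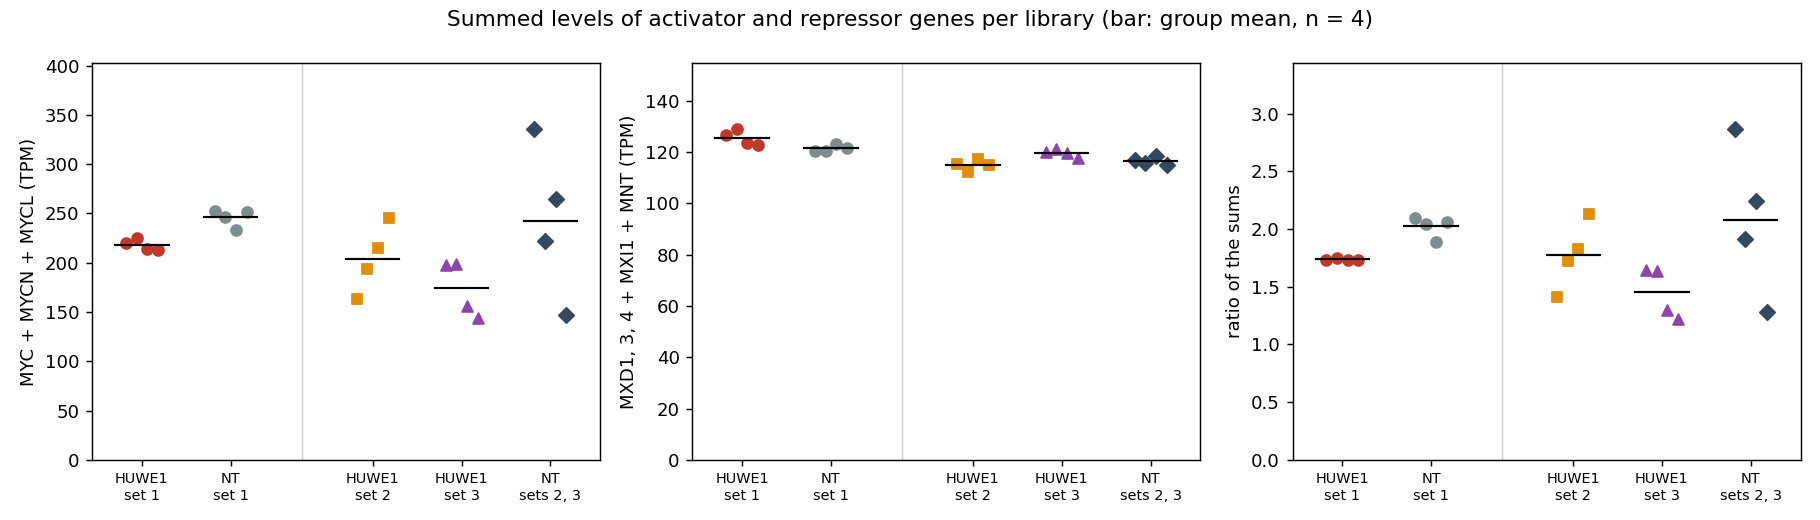
Summed TPM of the 3 activator genes, summed TPM of the 5 repressor genes and the ratio of these sums (vertical axes, from 0) in each library by group; points are libraries and bars are means of 4. The repressor sum stays between 112 and 129 TPM in all 20 libraries, while the activator sum of the NT libraries of sets 2 and 3 runs between 147 and 335 TPM.

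The remaining network partners gave 1 call in each direction in set 1 among 6 genes tested, where 12.3% of all genes were called higher and 17.9% lower, so the count was near the background. MLXIPL, which encodes ChREBP, a partner of MLX, had 10.4 ± 0.639 TPM in HUWE1 siRNA libraries, against 7.68 ± 0.354 TPM in NT libraries of set 1 (SD, n = 4 each; log2 fold change 0.40, limma adjusted p = 6.1e-04). MLXIP, which encodes MondoA, the other partner of MLX, had 33.8 ± 1.23 TPM in HUWE1 siRNA libraries against 38.7 ± 0.334 TPM in NT libraries (-0.19, adjusted p = 0.00184). In sets 2 and 3 limma called 0 of the 6, where 0.0126% and 11.6% of all genes were called. MLXIPL was at 0.21 and 0.32 (limma adjusted p = 0.587 and 0.0665) and MLXIP at -0.16 and -0.19 (0.602 and 0.14). An unadjusted p under 0.05 was held by 0 of 6 in set 2 and 4 of 6 in set 3, beside 8.83% and 34.5% of all genes. MGA, a MAX-binding repressor, was not called in any set.

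Of 9 tested genes reported as targets of MondoA or ChREBP, 5 fell and 1 rose in set 1, beside 17.9% lower and 12.3% higher of all genes, and the median log2 fold change was -0.12, against -0.012 over all genes. Without HUWE1 siRNA library 3 or 4 the lower count was 3. KLF10 (-0.38) and the arrestin-domain gene ARRDC4 (-0.35) were lower, while FASN, the fatty acid synthase gene, was higher (0.21; limma adjusted p = 2.87e-04, 0.0015 and 0.00232). TXNIP, the thioredoxin-interacting protein gene and best-known MondoA target, was at -0.12 (adjusted p = 0.0682). In set 2, 0 of 8 were called, where only 0.0126% of all genes were called. There 8 of 8 were negative, with a median of -0.16 against -0.0041 over all genes. In set 3, 2 of 8 fell, beside 4.15% of all genes. There 8 of 8 were negative, with a median of -0.20 against 0.0074 over all genes. Both sets use the same NT libraries, so their signs are not independent. The 2 called lower in set 3 were ACACA (-0.17, limma adjusted p = 0.0242), which encodes acetyl-CoA carboxylase, and ARRDC4 (-0.27, adjusted p = 0.0499). That count was 0 or 1 without any single library but NT library 4. Without NT library 4 it was 6, in a fit that called 37.2% of all genes.

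MYC targets, in the list used here mostly genes of ribosome assembly and of nucleotide or polyamine synthesis, were mostly lower in set 1. This list and the others were written with earlier results of these data known, so their counts are descriptions and not tests. Of 43 targets tested, 30 fell and 0 rose, beside 17.9% and 12.3% of all genes. The median log2 fold change was -0.13, against -0.012 over all genes. The count that rose was 1 with median-of-ratios scaling or without HUWE1 siRNA library 2, and 2 with quantile normalization or without HUWE1 siRNA library 1. RRP12, a ribosome assembly factor, had 38.9 ± 0.317 TPM in HUWE1 siRNA libraries, against 56.9 ± 0.497 TPM in NT libraries (SD, n = 4 each; log2 fold change -0.54, limma adjusted p = 1.84e-06). NME1, a nucleoside diphosphate kinase gene (-0.38), SRM, which encodes spermidine synthase (-0.46), and TCOF1, a nucleolar factor (-0.35), followed, with limma adjusted p up to 8.35e-05. In the same set PAICS, a purine synthesis enzyme gene, was at 0.055 and CCND2, which encodes cyclin D2, at 0.034 (adjusted p = 0.105 and 0.437).

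In set 2, limma called 0 of the 43 targets, where only 0.0126% of all genes were called. The median was -0.017, against -0.0041 over all genes. In set 3, 13 fell and 2 rose, beside 4.15% lower and 7.45% higher of all genes, with a median of -0.039 against 0.0074 over all genes. SRM had 158 ± 9.29 TPM in HUWE1 siRNA libraries, against 210.3 ± 19.8 TPM in NT libraries (SD, n = 4 each; -0.41, limma adjusted p = 0.00606). APEX1, a DNA repair endonuclease gene, had 333 ± 9.30 TPM in HUWE1 siRNA libraries against 384 ± 8.93 TPM in NT libraries (-0.21, adjusted p = 0.00944). The 2 that rose were the purine synthesis genes PAICS (0.29) and GART (0.16), named after their values were seen (limma adjusted p = 0.0436 and 0.0378). That count was 1 without HUWE1 siRNA library 2, 8 without NT library 4 and 0 without any other single library. It was also 0 with the replicate block, with only the 2 groups compared and without the filter. Median-of-ratios scaling, removal of mitochondrially encoded genes and a fit without a variance trend gave 0 as well. It stayed at 2 with a pseudocount of 0.1, the filter at a mean of 5 TPM, quantile normalization and the robust variance model. The count of 13 lower targets was 6, 11, 2 and 3 without HUWE1 siRNA libraries 1 to 4 of set 3, and 7, 6, 5 and 18 without NT libraries 1 to 4. It was 5 with the replicate block, 7 with only the 2 groups compared and 8 without the filter. These fits called 4.37%, 2.31% and 2.4% of all genes. Under the other alternatives the lower count was 12 to 15. Of all genes, 37.2% were called without NT library 4, and 1.03% and 1.06% without HUWE1 siRNA libraries 3 and 4. SRM and APEX1 stayed called without any single library.

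Corepressor genes that serve the MXD proteins gave few calls. Of 17 genes of the SIN3 and HDAC complex, 4 fell and 0 rose in set 1 (ING2 at -0.21, SAP130 at -0.11, SAP30 at -0.23 and HDAC2 at -0.09), beside 17.9% and 12.3% of all genes. The count of lower genes was 1 to 4 without single libraries. In set 3 SAP30, a SIN3 complex subunit gene, was the 1 of 17 called (-0.38, limma adjusted p = 0.0121), beside 4.15% of all genes called lower. In set 2 there were 0, where only 0.0126% of all genes were called. Of 18 MYC cofactor genes, 5 fell and 1 rose in set 1, beside 17.9% and 12.3% of all genes. The 1 higher call was lost without any single library but NT library 1, without the filter, without a variance trend and with the replicate block. CDK9 and CCNT1, the kinase and cyclin of P-TEFb, were at -0.17 and -0.23, and HCFC1, a chromatin cofactor bound by MYC, at -0.21 (limma adjusted p = 6.01e-04, 0.00102 and 0.00169). In set 3 HCFC1 was the 1 called (-0.35, adjusted p = 0.035), beside 4.15% of all genes called lower. That count ran between 0 and 11 lower genes without single libraries. It was highest without NT library 4, in a fit that called 37.2% of all genes.

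Among 23 tested genes that act on the stability of the MYC protein, 6 rose and 6 fell in set 1, beside 12.3% higher and 17.9% lower of all genes, and without HUWE1 siRNA library 3 the higher count was 3. SKP2, an F-box gene whose protein promotes both MYC turnover and MYC-driven transcription, had 94.7 ± 2.71 TPM in HUWE1 siRNA libraries, against 129.6 ± 7.14 TPM in NT libraries of set 1 (SD, n = 4 each; log2 fold change -0.45, limma adjusted p = 8.94e-05). FBXW7, the F-box gene for phosphorylated MYC, was at 0.11 (adjusted p = 0.0204), and USP28, a deubiquitinase gene that opposes it, at 0.12 (adjusted p = 0.0404). In set 3, 3 of the 23 fell and 0 rose, beside 4.15% lower and 7.45% higher of all genes. The lower count was 1 to 7 without single libraries. FBXL14 (-0.48) and PLK1 (-0.18) were called lower (limma adjusted p = 0.0197 for each), and each lost its call without some single libraries. SKP2 was again lower in set 3 (135 ± 4.05 TPM in HUWE1 siRNA libraries against 183 ± 5.87 TPM in NT libraries, log2 fold change -0.44, limma adjusted p = 7.05e-04). In HUWE1 siRNA libraries of set 2 it had 175 ± 9.25 TPM (-0.063, adjusted p = 0.655). The difference of set 3 from set 2 was itself called for SKP2 (-0.37, limma adjusted p = 0.00429), and in set 3 it stayed called under every alternative run. Of 20 genes acting on MYC transcription or its mRNA, 2 rose and 5 fell in set 1, near the 12.3% and 17.9% of all genes. Those of smallest p included LIN28B (-0.27), FUBP1 (0.23), whose protein binds upstream of MYC, and CTNNB1 (0.17), which encodes beta-catenin. In set 3 CTNNB1 was the 1 called, again higher (0.16, limma adjusted p = 0.026), beside 7.45% of all genes called higher. Its call was lost without HUWE1 siRNA library 1, 3 or 4 or NT library 1, 2 or 3 (adjusted p up to 0.0884) and with only the 2 groups compared (0.0642). The count of higher genes was 5 without NT library 4, in a fit that called 37.2% of all genes. PVT1, the noncoding neighbour of MYC, had 2.23 ± 0.0698 TPM in HUWE1 siRNA libraries and 2.36 ± 0.108 TPM in NT libraries of set 1 (adjusted p = 0.509).

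**Figure D4:**
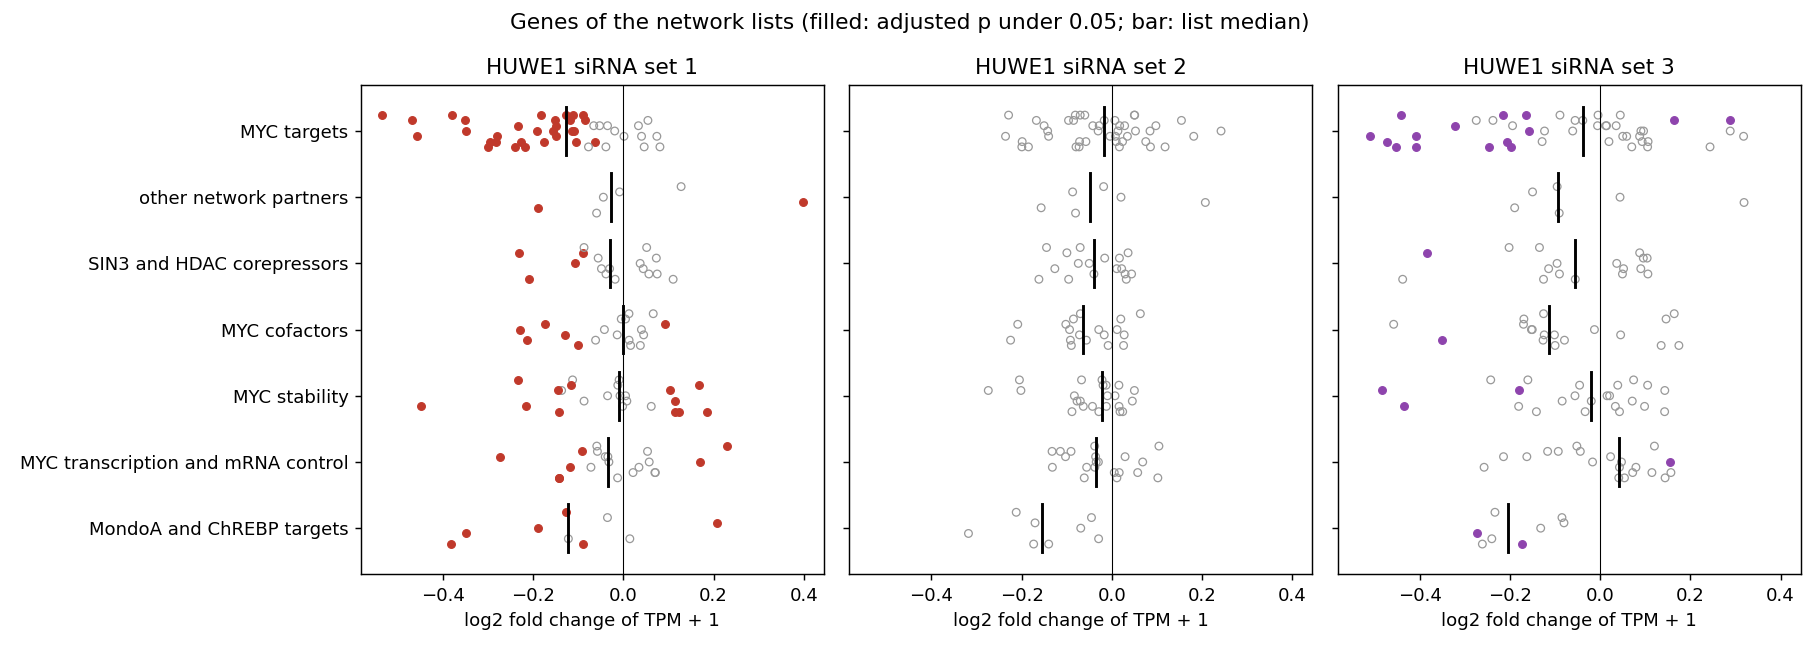
Log2 fold change of TPM + 1 (horizontal axis, the same in each panel) of single genes in 7 lists (rows) in sets 1, 2 and 3; filled points have a limma adjusted p under 0.05 and bars are list medians. In set 1, 30 of 43 MYC targets are filled and all of these lie below 0. In set 2 no listed gene is filled, where only 0.0126% of all genes were called.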

How the data were processed

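TPM values were deposited by the authors in a table with set 1 (8 libraries) and a table with sets 2 and 3 (12 libraries), each library summing to the same total; TruSeq stranded mRNA libraries were sequenced on a NovaSeq, per the labels' protocols. The submitters' processing notes name hg38 as the build, with aligner and counter not given in the sources used here. From these values log2(TPM + 1) was computed for genes that reached 1 TPM in 4 or more libraries of the table, and fitted with limma 3.58.1 in R 4.3.3 (trended variance, group means, Benjamini-Hochberg adjustment over all genes, threshold 0.05). The first table was fitted on its 8 libraries and the second as 1 model of 12, and tables normalized separately were never tested together. On this scale fold changes of low genes are understated. The procedure was tested on simulated data. Besides the network genes, those named are HUWE1, up to 4 called genes of smallest p per list and set, and the 5 closest to MYC in profile; others named from the lists were chosen after their values were seen. The members and the 7 lists (138 entries, 137 found) were chosen with earlier results of these data known. Gene coordinates are GENCODE 29 (GRCh38). The alternatives changed the pseudocount (0.1), the filter (none, or a mean of at least 5 TPM), the scaling (median of ratios, quantiles, or mitochondrially encoded genes removed) and the variance model (no trend, robust), or added a block for the replicate number, fitted the 2 groups of a comparison alone, or left out each library in turn. The fit without NT libraries 1 and 4 was added after seeing the data.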

Additional observations from a re-analysis of the deposited data

Results flagged for a closer look

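A library was looked at again when its gap to the nearest of the other 3 in its group, over the group's range, exceeded 0.829. Of 50 combinations of gene and group checked, 4 did, where chance gives about 1 in 20. MXI1 in HUWE1 siRNA library 1 of set 1 had 29.98 TPM, against 27.6 to 27.8 TPM in the other 3. MXD1 in HUWE1 siRNA library 2 of set 3 had 6.215 TPM, against 7.35 to 7.54 TPM in the others, and still lay above every NT library. MXD4 in HUWE1 siRNA library 4 of set 3 had 51.19 TPM, against 52.1 to 52.2 TPM, a gap of under 1 TPM in a tight group. MXI1 in HUWE1 siRNA library 2 of set 3 had 25.68 TPM, against 28.0 to 28.5 TPM.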

How the results depend on the processing

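In set 1 the counts of network genes were 1 to 2 higher without single libraries, and MYC, MXD4 and MNT stayed called under every alternative. In set 3 the count of higher genes was 0 to 2 without single libraries and 1 with only the 2 groups compared, and that of lower genes 0 to 2. Between sets 3 and 2 it was 1 with only the 2 groups compared (MXD4, 0.16, limma adjusted p = 0.043). Same-numbered libraries did not deviate together throughout (correlations between -0.481 and 0.407), and the main fit did not pair them. With 4 libraries per group these correlations cannot settle whether the numbers mark a shared culture or batch. With the replicate number as a block, 1 network gene was called higher in set 3, MXD4 losing its call at an unchanged 0.18, and MLX was called in set 1 (-0.087). Signs turned only for changes that were never called. In set 2, MYCN was -0.0043 with quantile normalization and MXD4 -0.0076 without NT libraries 1 and 4, and in set 3 MYCL was -0.012 without mitochondrially encoded genes. Ranges without single libraries that crossed 0 were -0.046 to 0.0034 for MAX in set 1. In set 2 they were -0.018 to 0.089 for MYCN, -0.10 to 0.035 for MYCL, -0.060 to 0.0072 for MAX, -0.041 to 0.029 for MXD3, -0.016 to 0.039 for MXD4 and -0.091 to 0.027 for MNT. In set 3 they were -0.19 to 0.025 for MYCN and -0.052 to 0.082 for MYCL. Between sets 3 and 2 they were -0.071 to 0.024 for MAX and -0.026 to 0.049 for MXI1. The cause of these changes was not tested. Over all genes, set 3 had 1839 calls, 360 with only the 2 groups compared, 698 without the filter, 693 with the replicate block and between 163 and 5878 without single libraries. Depth is unknown, so the precision of low genes such as MYCN cannot be set by counting error.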
